A study of Mus musculus with 18 samples.

Results

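The genes described here are 41 genes of fatty acid oxidation and targets of the nuclear receptor PPARA, measured by RNA sequencing in mouse liver. They form a module listed by symbol, and all 41 were found among the 37315 genes of the count table and passed the filter on low counts that left 16213 genes. The livers came from mice on a C57BL/6J background that received L-asparaginase, an enzyme drug that breaks down circulating asparagine and glutamine, or phosphate-buffered saline (PBS). Asparaginase (Elspar) was given intraperitoneally once a day at 3 IU per g of body weight, and PBS was given in the same volume. Mice were 2, 8 or 16 weeks old. Those of 2 and 16 weeks had 7 injections and those of 8 weeks had 8, so the 8-week groups differ from the others in age and by 1 injection. Livers were taken 7.5 h after the last injection. There were 6 groups of 3 libraries: asparaginase at 2, 8 and 16 weeks and PBS at 2, 8 and 16 weeks, with males and females in each group. Feeding before collection is not given in the sources used here. The series set the response of the liver to asparaginase at the 3 ages side by side.

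Fatty acids enter hepatocytes through transporters, are joined to coenzyme A, and are carried into mitochondria as carnitine esters, where beta-oxidation shortens them and feeds the respiratory chain and ketone body synthesis. Peroxisomes shorten very long chains, and cytochrome P450 enzymes of the CYP4A family hydroxylate the far end of the chain in the endoplasmic reticulum. PPARA is activated by fatty acids and pairs with RXR receptors on DNA; in mouse liver it is known for raising many genes of these routes during fasting.

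The libraries held between 24690871 and 46949361 counts on genes, and the 41 genes took between 0.538% and 1.60% of each. All 12 hepatocyte markers checked were detected in every group. The sex labels matched the reads in 15 libraries. The other 3, of 2-week livers (asparaginase replicate 3 and PBS replicates 1 and 2), held both Xist and Y-linked reads, with 263 to 361 CPM of Xist (CPM, reads of a gene scaled to the size of its library) and 52.4 to 57.3 CPM over 4 Y-linked genes. Transcripts of other tissues varied between libraries of one group: the summed level of 10 skeletal muscle markers at 8 weeks was 2220, 344 and 145 CPM in asparaginase livers and 686, 291 and 810 CPM in PBS livers, and that of 12 squamous epithelium markers was 920, 499 and 72.8 CPM against 42.4, 39.6 and 59.2 CPM. Summed pancreatic acinar markers (12 genes) at 2 weeks were 1360, 1850 and 644 CPM in asparaginase livers against 181, 194 and 76.2 CPM in PBS livers. At 16 weeks they were 379, 13.8 and 4610 CPM in asparaginase livers against 13.0, 634 and 716 CPM in PBS livers. In the mean effect over the ages 12 of 12 acinar markers had a positive log2 fold change (median 4.40, none called), and 2 of 12 hepatocyte markers were called lower. Major urinary protein genes took 5.39% to 47.9% of the counts of adult livers and 0.046% to 0.579% of those of 2-week livers, which lowers the CPM of other genes in adults before scaling. The 8-week asparaginase replicate 1, a female with the highest muscle and squamous sums of its age, held the highest level of 13 of the 41 genes among all 18 libraries, and the 16-week asparaginase replicate 2, a male, held the lowest level of 16. The part of these differences in the results below was not tested, except where values without a library are given. In bulk tissue, fewer cells of a type and less RNA per cell cannot be told apart.

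Promoter windows were read to show some of the genes named in the treatment, age and sex results. PPARA binds with RXR to a direct repeat of the hexamer AGGTCA with 1 base between the copies, so this hexamer was sought. RefSeq windows on GRCm38.p6, from 250 bases before to 50 bases after the start, were found for 34 of the 41 genes, in 39 windows. Those of Cpt1a, Slc27a2, Fabp1 and Acot3 are printed 5′ to 3′ on the forward strand. Cpt1a and Slc27a2 were called higher with asparaginase in the mean effect over the 3 ages, with groups that overlapped at 16 weeks. Fabp1 had the highest level per length, and Acot3 was the gene furthest apart between the sexes. Capitals mark AGGTCA, or its reverse complement TGACCT, and the looser repeat AGGNCANAGGNCA on either strand.
Cpt1a, chr19:3323051-3323350: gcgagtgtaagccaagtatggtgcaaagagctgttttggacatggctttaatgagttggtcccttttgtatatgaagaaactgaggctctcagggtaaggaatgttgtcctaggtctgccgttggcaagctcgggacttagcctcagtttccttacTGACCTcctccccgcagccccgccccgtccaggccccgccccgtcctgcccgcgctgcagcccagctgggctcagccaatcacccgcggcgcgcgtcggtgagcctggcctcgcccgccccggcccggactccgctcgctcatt
Slc27a2, chr2:126552774-126553073: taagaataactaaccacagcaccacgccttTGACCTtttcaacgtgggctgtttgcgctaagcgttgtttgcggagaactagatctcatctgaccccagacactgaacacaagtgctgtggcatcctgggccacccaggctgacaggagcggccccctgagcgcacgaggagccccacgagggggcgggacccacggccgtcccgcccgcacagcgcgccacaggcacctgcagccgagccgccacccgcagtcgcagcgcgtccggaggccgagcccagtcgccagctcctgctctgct
Fabp1, chr6:71199629-71199928: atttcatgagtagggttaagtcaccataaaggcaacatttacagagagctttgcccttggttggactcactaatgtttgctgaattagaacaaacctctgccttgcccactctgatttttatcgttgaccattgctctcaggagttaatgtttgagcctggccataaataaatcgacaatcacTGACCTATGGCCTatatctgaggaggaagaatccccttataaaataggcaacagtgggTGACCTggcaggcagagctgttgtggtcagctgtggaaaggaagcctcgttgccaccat
Acot3, chr12:84051894-84052193: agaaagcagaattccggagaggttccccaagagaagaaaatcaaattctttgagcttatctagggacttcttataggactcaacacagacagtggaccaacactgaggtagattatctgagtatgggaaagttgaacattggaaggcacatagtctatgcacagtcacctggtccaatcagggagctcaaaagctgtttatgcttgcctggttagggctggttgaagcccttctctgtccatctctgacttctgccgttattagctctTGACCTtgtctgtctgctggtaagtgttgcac
The hexamer stood on the reverse strand at bases 157 to 162 of the Cpt1a window, 31 to 36 of the Slc27a2 window, 242 to 247 of the Fabp1 window and 269 to 274 of the Acot3 window. AGGTCA was present in 9 of the 39 windows, which belong to 8 of the 34 genes, against 16.3% of the 32851 windows of all genes. Each window printed here holds it, so those printed do not represent the 34 genes, most of which had no match. The looser repeat was in 1 window of the 41 genes, that of Fabp1 at bases 184 to 196, where its first letters, TGACCT, are a further match of the hexamer, against 0.381% of all windows. The exact repeat AGGTCANAGGTCA was in 0 windows of the 41 genes and in 0.0396% of all windows. A match is a description of these letters and shows no binding. Acaa2, Vnn1, Cyp4a31, Cyp4a10, Crat, Decr1 and Cyp4a14 were not in the table used.

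Levels per kilobase of exon spanned a wide range. Fabp1, which encodes the liver fatty acid binding protein, had the highest, with group means of 1235, 3801 and 3792 CPM per kb in asparaginase livers of 2, 8 and 16 weeks and 2320, 5320 and 4555 CPM per kb in PBS livers. Slc27a1, a fatty acid transporter best known from muscle and fat, lay between 0.895 and 1.51 CPM per kb, and Ppargc1a, the coactivator PGC-1alpha, between 0.632 and 4.94 CPM per kb.

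No gene of the module passed the threshold for asparaginase against PBS at any single age. Averaged over the 3 ages, 3 genes were called higher, or 7.32% of the 41, where 5.41% of all genes were called in either direction. They were Cpt1a, the carnitine palmitoyltransferase that admits long-chain fatty acids to mitochondria, Slc27a2, a transporter and very long-chain acyl-CoA synthetase, and Cyp4a31, an omega-hydroxylase. Each of the 3 calls was lost in some fits without a single library, as given below. With edgeR's quasi-likelihood test and Benjamini-Hochberg adjustment over all 16213 genes, 0 of the 41 genes were called at 2, 8 and 16 weeks, where 0.432%, 0.364% and 0.234% of all genes were called. Of all genes, 0.327% were called higher and 0.105% lower at 2 weeks, 0.191% higher and 0.173% lower at 8 weeks, and 0.191% higher and 0.0432% lower at 16 weeks. At an unadjusted p under 0.05 there were 6, 6 and 4 of the 41, against 12.6%, 18.4% and 11.4% of all genes. DESeq2 called 1, 2 and 1 of the 41, among 432, 659 and 322 genes in all, and limma-voom called 0 at each age. The median log2 fold change (asparaginase over PBS) of the 41 genes was 0.0451 at 2 weeks, 0.0239 at 8 weeks and -0.0475 at 16 weeks, beside -0.00746, 0.00641 and 0 over all genes. The 95% interval of the fold change lay within 2-fold in either direction for 31, 30 and 34 of the 41 genes. That of the other 10, 11 and 7 genes reached 2-fold or beyond, so a change of that size is not excluded for them.

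For the mean effect over the 3 ages, 3 of the 41 genes were called, or 7.32%, all higher in asparaginase livers, where 5.41% of all genes were called (2.55% higher and 2.86% lower). At an unadjusted p under 0.05 there were 16 of the 41, against 22.4% of all genes. DESeq2 called 8 of the 41, of which 7 were higher and 1 was lower, among 1525 genes in all. The median log2 fold change of the 41 genes was -0.0301, beside 0.00459 over all genes. All 3 calls were lost without the 8-week asparaginase replicate 1, without the 2-week asparaginase replicate 1 or without the 16-week asparaginase replicate 3, which held the highest acinar marker sum of the series, and also without the 3 libraries that held reads of both sexes. In that last fit, with sex fitted in adults alone, the mean log2 fold changes were 0.45 for Cpt1a, 0.32 for Slc27a2 and 0.61 for Cyp4a31. Without the 2-week asparaginase replicate 2, 6 of the 41 genes were called. The share of all genes called in these fits is not given here.

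**Figure D1:**
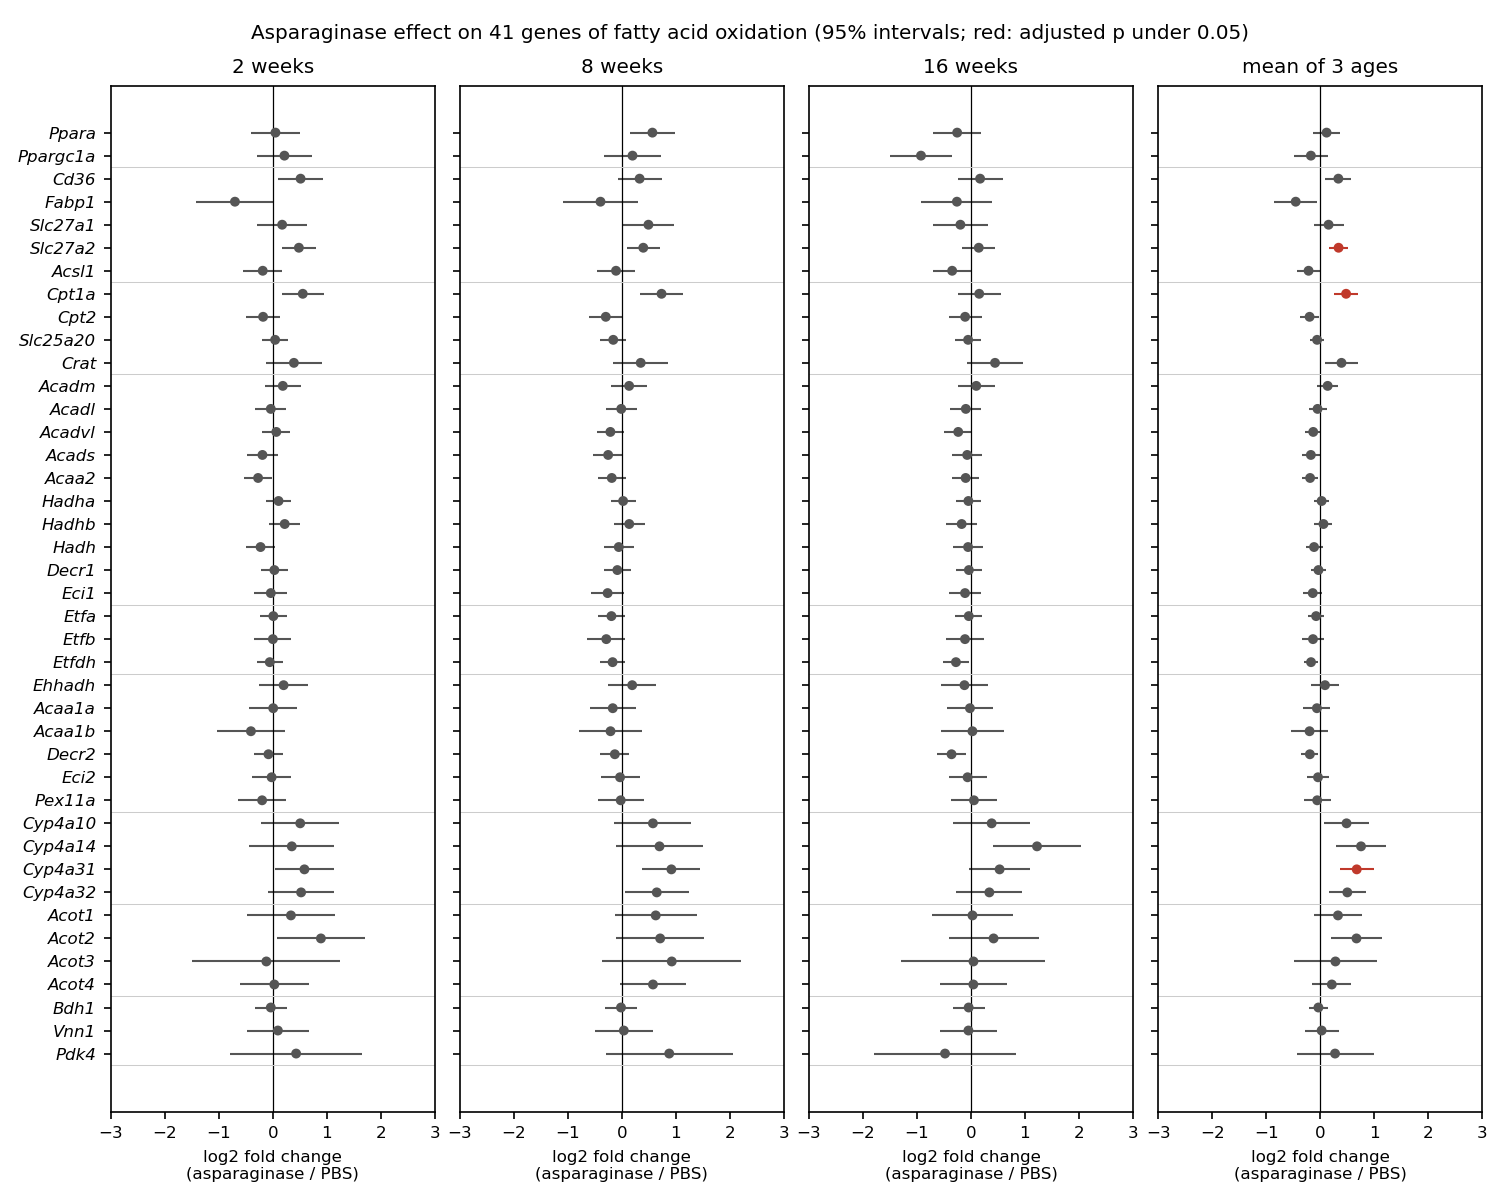
Log2 fold change of the 41 genes, asparaginase over PBS, at 2, 8 and 16 weeks and averaged over the 3 ages, with 95% intervals as lines; red marks an adjusted p under 0.05. Red points stand only in the panel of the mean effect, at Cyp4a31, Cpt1a and Slc27a2, while the intervals of most genes cross 0 in each panel.

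Neither of the 2 regulators passed the test at any age. Ppara (chr15:85734983-85802819) had 74.1, 79.0 and 83.5 CPM in asparaginase livers and 82.6, 80.3 and 68.9 CPM in PBS livers at 2 weeks. At 8 weeks it had 125, 104 and 89.4 CPM in asparaginase livers against 47.8, 85.1 and 82.2 CPM in PBS livers, and at 16 weeks 83.2, 93.6 and 81.7 CPM against 104, 99.2 and 101 CPM. All 3 asparaginase libraries thus lay above all 3 PBS libraries at 8 weeks and below them at 16 weeks, by gaps smaller than the SD of the asparaginase libraries of that age. The log2 fold changes at those ages were 0.57 ± 0.195 (SE; adjusted p = 0.159) and -0.26 (adjusted p = 0.684).

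Ppargc1a (chr5:51454250-51567726), a coactivator of PPARA that fasting and cold raise, had 34.0, 32.8 and 31.0 CPM in asparaginase livers of 2 weeks against 18.6, 34.2 and 30.3 CPM in PBS livers. At 16 weeks it had 3.62, 4.24 and 4.63 CPM in asparaginase livers against 8.72, 11.8 and 6.41 CPM in PBS livers, with no overlap. The log2 fold change at 16 weeks, -0.93 ± 0.268 (SE), had the smallest p of the 41 genes at that age and did not pass adjustment (adjusted p = 0.222). Muscle and fat also express Ppargc1a: at 16 weeks the summed muscle markers were 4.71, 18.0 and 3.26 CPM in asparaginase livers against 132, 243 and 41.7 CPM in PBS livers, with 10 of 10 markers at a negative log2 fold change, and 8 adipocyte markers summed to 2.00, 0.388 and 3.89 CPM against 10.7, 25.8 and 12.5 CPM. Their part in the result was not tested. At 8 weeks its libraries overlapped, with 13.4, 7.12 and 11.1 CPM in asparaginase livers and 8.74, 9.84 and 10.2 CPM in PBS livers.

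Among the genes of uptake, binding and activation, Slc27a2 (chr2:126552407-126588243) had 1247, 1123 and 1298 CPM in asparaginase livers and 829.5, 899 and 891 CPM in PBS livers at 2 weeks. At 8 weeks it had 1255, 1103 and 1038 CPM in asparaginase livers and 828, 946 and 809 CPM in PBS livers, and at 16 weeks 1026, 894 and 1155 CPM in asparaginase livers and 892, 896 and 1014 CPM in PBS livers. The groups did not overlap at 2 and 8 weeks and overlapped at 16 weeks. Slc27a2 rose by a mean of 0.34 ± 0.0816 on the log2 scale (SE; 95% interval 0.166 to 0.519; adjusted p = 0.0319). The fold changes at the single ages were 0.49 (adjusted p = 0.166), 0.40 (adjusted p = 0.168) and 0.14 (adjusted p = 0.747). The call was lost in 7 of the 18 fits that each left out 1 library (asparaginase replicate 1 of 2 weeks, 1 and 2 of 8 weeks and 1 and 3 of 16 weeks, and PBS replicates 1 and 2 of 16 weeks). Its mean log2 fold change ranged from 0.267 to 0.416 over the 18 fits.

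Cd36, a membrane fatty acid translocase, had a mean log2 fold change of 0.34 ± 0.110 (SE; adjusted p = 0.0953). Fabp1 had 2064, 2237 and 2005 CPM in asparaginase livers of 8 weeks against 3458, 2330 and 3037 CPM in PBS livers, without overlap. Its log2 fold change was -0.39 at 8 weeks and -0.45 in the mean. Neither passed edgeR's quasi-likelihood test (adjusted p = 0.534 and 0.17). The Fabp1 groups overlapped at 2 and 16 weeks. Its level at 2 weeks varied widely within the PBS group, at 2079, 996 and 774 CPM, against 641, 569 and 839 CPM in asparaginase livers. Slc27a1 and Acsl1, the main long-chain acyl-CoA synthetase of liver, differed at no age past the threshold. The smallest p of Slc27a1 was at 8 weeks (log2 fold change 0.49, adjusted p = 0.249) and that of Acsl1 at 16 weeks (-0.35, adjusted p = 0.461). Over the 5 genes the median log2 fold change was 0.175, 0.330 and -0.195 at 2, 8 and 16 weeks.

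In the carnitine shuttle, Cpt1a (chr19:3322334-3385733) had 639, 454 and 469.8 CPM in asparaginase livers and 325, 365 and 395 CPM in PBS livers at 2 weeks. At 8 weeks it had 597, 408 and 421 CPM in asparaginase livers and 245, 336 and 287 CPM in PBS livers, and at 16 weeks 311, 322 and 406 CPM in asparaginase livers and 344, 336 and 306 CPM in PBS livers. Every asparaginase liver lay above every PBS liver at 2 and 8 weeks, while at 16 weeks the groups overlapped. Cpt1a rose by a mean of 0.48 ± 0.105 on the log2 scale (SE; 95% interval 0.254 to 0.710; adjusted p = 0.0232). At the single ages its fold changes were 0.56 ± 0.182 (adjusted p = 0.21), 0.74 ± 0.181 (adjusted p = 0.0709) and 0.15 (adjusted p = 0.805). The call for the mean was lost in 4 of the 18 fits that each left out 1 library: those named above and that without 16-week PBS replicate 3. Its mean ranged from 0.339 to 0.624 over the 18 fits.

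The partners of Cpt1a did not pass the test. Cpt2, which returns acylcarnitines to acyl-CoA on the inner membrane, had 68.3, 60.4 and 67.4 CPM in asparaginase livers of 2 weeks, all below the 76.0, 68.8 and 77.2 CPM of PBS livers, and overlapped at the later ages. Slc25a20, the carnitine-acylcarnitine carrier, stayed between 56.0 and 73.3 CPM over all 18 libraries. Crat, the carnitine acetyltransferase for short chains, had a mean log2 fold change of 0.40 (adjusted p = 0.113), with 57.1, 27.9 and 35.4 CPM in asparaginase livers of 8 weeks against 31.2, 33.4 and 35.7 CPM in PBS livers, where the single high library is the one with the highest muscle markers.

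The 10 genes of mitochondrial beta-oxidation held the core of the pathway, and none was called at a single age or for the mean effect. Their median log2 fold change was -0.00176, -0.0697 and -0.0823 at 2, 8 and 16 weeks, and the mean effects lay between -0.185 and 0.1404. Acadm, the medium-chain acyl-CoA dehydrogenase and a textbook PPARA target, had 319, 249 and 278 CPM in asparaginase livers of 8 weeks and 257, 286 and 229 CPM in PBS livers, with overlap at every age. Acaa2, the thiolase of the last step, had the smallest p of these genes: 464, 510 and 518 CPM in asparaginase livers of 2 weeks against 603, 581 and 586 CPM in PBS livers. Its log2 fold change there was -0.27 ± 0.120 (SE; adjusted p = 0.37), and its mean over the ages -0.19 (adjusted p = 0.135). Hadhb, the thiolase subunit of the trifunctional protein, had 298, 250.3 and 246 CPM in asparaginase livers of 2 weeks, above the 222, 227 and 243 CPM of PBS livers. Of its 50-base stretches, 19.7% also occur in other annotated genes, most of them in Gm13910 (18.1%), so reads could be split.

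The electron transfer genes Etfa, Etfb and Etfdh, which pass electrons from the acyl-CoA dehydrogenases to ubiquinone, had mean log2 fold changes between -0.1678 and -0.0738, none past the threshold. Etfdh at 16 weeks had 168, 144 and 154 CPM in asparaginase livers against 179, 170 and 203 CPM in PBS livers, without overlap (log2 fold change -0.28 ± 0.111, SE; adjusted p = 0.367). Of Etfb, 44.8% of the 50-base stretches are shared with other annotated genes, most of them with Gm45233 (43.8%). Gm45233 overlaps Etfb on the same strand and is not among the genes counted, so no reads were assigned to it. Whether reads from it are in the Etfb count is not known.

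Of the 6 peroxisomal genes, 2, 1 and 2 had a positive log2 fold change at 2, 8 and 16 weeks, and none was called. Ehhadh, the bifunctional enzyme of peroxisomal beta-oxidation, had 488, 284 and 416 CPM in asparaginase livers of 8 weeks against 421, 320.4 and 397 CPM in PBS livers, and its groups overlapped at all ages. Decr2, the peroxisomal dienoyl-CoA reductase, was lower in every asparaginase liver than in every PBS liver at 8 and at 16 weeks, although at 8 weeks the nearest libraries both round to 159 CPM. At 16 weeks it had 110, 105 and 143 CPM in asparaginase livers and 156, 168 and 157 CPM in PBS livers (log2 fold change -0.36 ± 0.124, SE; adjusted p = 0.29). Acaa1a and Acaa1b, the peroxisomal thiolases, share 12.9% and 30.5% of their 50-base stretches with other genes, so their counts are less certain.

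The 4 omega-hydroxylase genes Cyp4a10, Cyp4a14, Cyp4a31 and Cyp4a32 lie together on chr4:115486200-115621602. With sex in the fit, they had a positive log2 fold change at every age, with medians of 0.518, 0.673 and 0.457 at 2, 8 and 16 weeks. At 16 weeks the group means of Cyp4a10 were 153.9 CPM in asparaginase livers and 153.3 CPM in PBS livers. Those of Cyp4a14 were 265 and 187 CPM, of Cyp4a31 14.3 and 12.3 CPM, and of Cyp4a32 29.9 and 25.9 CPM. Cyp4a10, Cyp4a31 and Cyp4a32 also share sequence, so the 4 directions are not independent. Of the 4 genes, Cyp4a31 was the one called, for the mean effect. Cyp4a31 had 137, 118 and 149 CPM in asparaginase livers and 69.9, 94.7 and 97.9 CPM in PBS livers at 2 weeks. It had 96.4, 28.9 and 56.7 CPM in asparaginase livers and 40.8, 28.4 and 40.9 CPM in PBS livers at 8 weeks, and 9.78, 8.32 and 24.8 CPM in asparaginase livers and 12.1, 17.4 and 7.39 CPM in PBS livers at 16 weeks. Only the 2-week groups were free of overlap, and in both adult asparaginase groups the female was the highest library. Cyp4a31 rose by a mean of 0.68 ± 0.145 on the log2 scale with sex in the fit (SE; 95% interval 0.364 to 0.994; adjusted p = 0.0209), and the call was lost without the sex term.

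Cyp4a14 had 124, 39.6 and 630.2 CPM in asparaginase livers of 16 weeks and 231, 295 and 36.0 CPM in PBS livers, in which the highest asparaginase library was its 1 female and the lowest PBS library its 1 male. Once sex was fitted, its log2 fold change at 16 weeks was 1.22 ± 0.378 (SE; adjusted p = 0.251) and the mean over the ages 0.76 ± 0.214 (SE; adjusted p = 0.0595). Cyp4a32 had a mean of 0.50 ± 0.161 (SE; adjusted p = 0.0895). Part of the sequence of these genes is shared: 43.8% of the 50-base stretches of Cyp4a32, 29.8% of Cyp4a10 and 20.6% of Cyp4a31 occur in another gene. For Cyp4a14 the share was 0.235%. The counts of all but Cyp4a14 may thus be split between neighbours.

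The thioesterases Acot1 to Acot4, which release free fatty acids from acyl-CoA, were positive in 3, 4 and 4 of the 4 genes at 2, 8 and 16 weeks with sex in the fit, and none was called. At 16 weeks the group means of 3 of them ran the other way, at 19.4 CPM in asparaginase livers against 19.6 CPM in PBS livers for Acot1, 21.9 against 24.9 CPM for Acot3 and 29.1 against 34.5 CPM for Acot4, so no direction is read from their fitted values. Acot2, the mitochondrial member, had 26.3, 4.80 and 9.14 CPM in asparaginase livers of 2 weeks against 9.86, 7.11 and 6.60 CPM in PBS livers (log2 fold change 0.89 ± 0.380, SE; adjusted p = 0.347), and a mean of 0.67 (adjusted p = 0.0956). One asparaginase library was above the PBS range there and 1 was below it. Between 4.53% and 27.7% of the 50-base stretches of these genes occur in another gene.

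The last 3 genes stand at branch points. Pdk4, the kinase that switches pyruvate dehydrogenase off and is high in fasting, varied widely within groups: 68.2, 9.03 and 6.24 CPM in asparaginase livers of 8 weeks, against 11.4, 9.44 and 24.1 CPM in PBS livers. Its high library is again the 8-week asparaginase replicate 1, and muscle also expresses Pdk4. Vnn1, a pantetheinase that is a known PPARA target, had 63.1, 37.9 and 37.2 CPM in asparaginase livers of that age and 53.8, 44.2 and 48.3 CPM in PBS livers. Bdh1, a mitochondrial enzyme that makes the ketone body 3-hydroxybutyrate, overlapped between the groups at every age. None of the 3 passed the test.

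**Figure D2:**
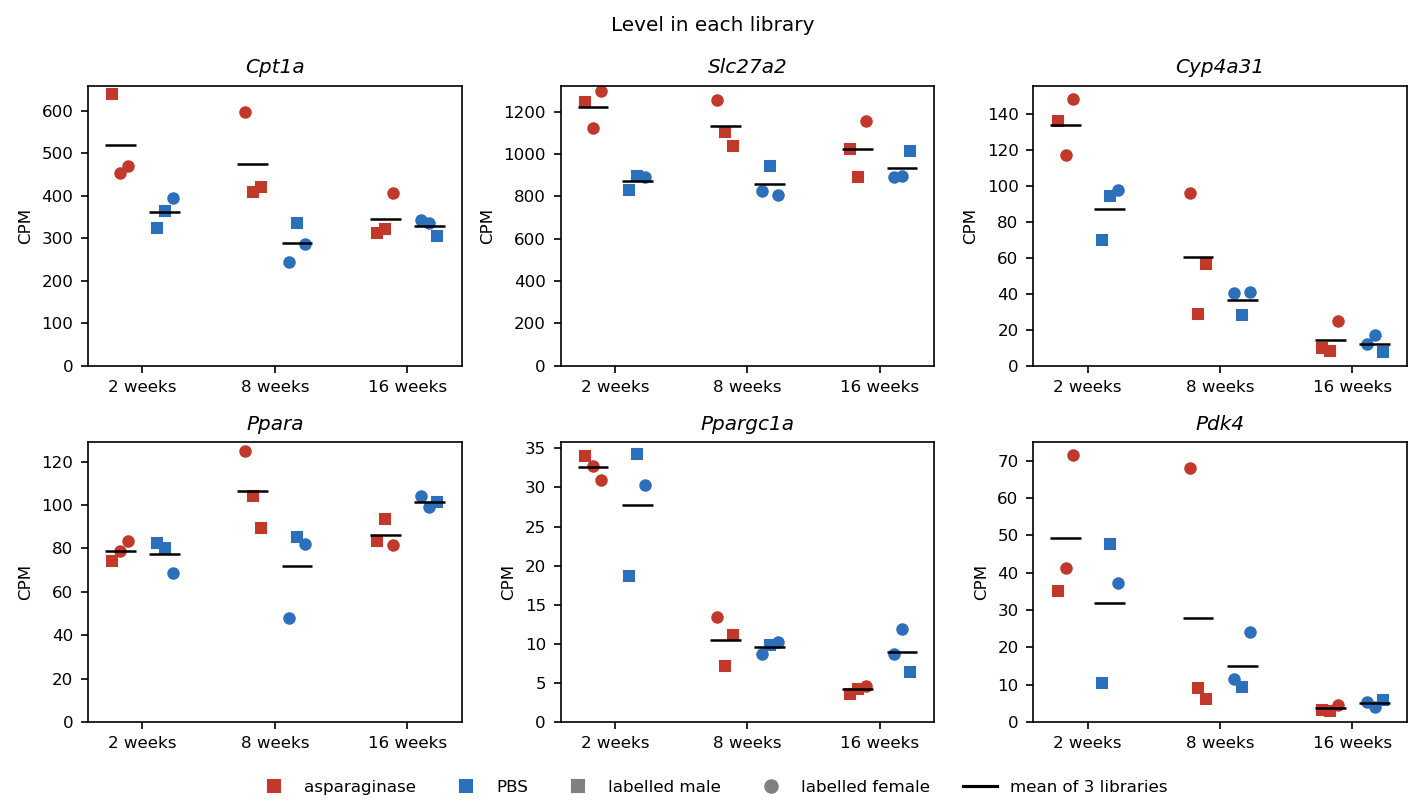
CPM on a linear axis for Cpt1a, Slc27a2, Cyp4a31, Ppara, Ppargc1a and Pdk4 in each library by age, with asparaginase in red left of PBS in blue, squares for males, circles for females and a line at the mean of 3. The 3 asparaginase points of Cpt1a and Slc27a2 lie above the PBS points at 2 and 8 weeks, and those of Ppargc1a lie below them at 16 weeks.

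Whether the asparaginase effect differed between ages was tested directly. No gene of the 41 was called for 8 minus 2, 16 minus 2 or 16 minus 8 weeks, where 0%, 0% and 0.0123% of all genes were called, nor in the joint test over the ages, in which edgeR called 0 of all genes and 2 of the 41 had an unadjusted p under 0.05, against 9.43% of all genes. DESeq2 called 0 of the 41 in these tests, among 83, 107 and 147 genes in all for the differences in that order and 155 for the joint test. The 2 were Ppargc1a (adjusted p = 0.406) and Ppara (adjusted p = 0.494), by edgeR's quasi-likelihood test. From 8 to 16 weeks the log2 fold change changed by -1.12 ± 0.361 for Ppargc1a (SE; adjusted p = 0.409), by -0.82 ± 0.281 for Ppara (adjusted p = 0.427) and by -0.58 ± 0.258 for Cpt1a (adjusted p = 0.511). The smaller fold change of Cpt1a at 16 weeks is thus not shown to differ from that at 8 weeks.

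Few genes of the module were free of overlap between asparaginase and PBS livers, at shares near or under those of all genes. At 2 weeks all 3 asparaginase libraries were above all 3 PBS libraries for Cpt1a, Cyp4a31, Hadhb and Slc27a2, 4 of 41 genes against 8.09% of all genes, and below them for Acaa2, Acads, Cpt2 and Pex11a, 4 of 41 against 8.64%. At 8 weeks they were above for Cpt1a, Ppara and Slc27a2, 3 of 41 against 7.29%, and below for Decr2 and Fabp1, 2 of 41 against 8.57%. At 16 weeks they were above for 0 of 41 genes against 10.1%, and below for Decr2, Etfdh, Ppara and Ppargc1a, 4 of 41 against 9.63%.

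Between adult and 2-week PBS livers many genes of the module changed, at shares near those of all genes. Between 8 and 2 weeks, 10 genes rose and 5 fell, 36.6% of the 41, where 31.7% of all genes were called (14.8% higher and 16.9% lower at 8 weeks). The risers included uptake and binding genes (Cd36, Fabp1), peroxisomal genes (Ehhadh, Acaa1a, Acaa1b and Pex11a, which acts in peroxisome division) and Acot1, while Ppargc1a, Cyp4a31, Bdh1, Acadl and Hadh fell. Cd36 had 143, 91.5 and 106 CPM at 8 weeks against 31.5, 36.7 and 27.6 CPM at 2 weeks (log2 fold change 1.78 ± 0.192, SE; adjusted p = 6.82e-05). Between these ages 6 of 6 adipocyte markers (1 called) and 10 of 10 muscle markers (0 called) had a positive log2 fold change. Called lower were 6 of 9 endothelial and 5 of 9 stellate cell markers. The part of these cells in the rise of Cd36 was not tested. Ehhadh had 421, 320.4 and 397 CPM at 8 weeks against 234, 193 and 165 CPM at 2 weeks (log2 fold change 0.92 ± 0.200, SE; adjusted p = 0.00437). Acot1 rose by 2.02 ± 0.368 (adjusted p = 0.00157), Acaa1b by 1.21 ± 0.277 (adjusted p = 0.00584) and Pex11a by 0.98 ± 0.197 (adjusted p = 0.00286) on the log2 scale. Ppargc1a had 8.74, 9.84 and 10.2 CPM at 8 weeks against 18.6, 34.2 and 30.3 CPM at 2 weeks, a log2 fold change of -1.57 ± 0.239 (adjusted p = 0.000492). Of the 2-week PBS livers, 2 held reads of both sexes. Without these and the asparaginase liver of that kind, 12 of the 41 genes were called, and without 2-week PBS replicate 3, 7 were. How many of all genes were called in these fits is not given here.

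Between 16 and 2 weeks, 4 genes rose and 9 fell, 31.7% of the 41, where 27.8% of all genes were called (13.2% higher and 14.5% lower at 16 weeks). The 4 that rose (Cd36, Fabp1, Acot1 and Pex11a) had also risen at 8 weeks, in a comparison with the same 2-week livers. Markers of other cells moved between these ages too: all 6 adipocyte markers tested were called higher at 16 than at 2 weeks (summed 10.7, 25.8 and 12.5 CPM against 0.267, 1.57 and 1.78 CPM), and 5 of 9 endothelial and 4 of 9 stellate cell markers were called lower. Fat and endothelium also express Cd36, and the part of these cells in its rise was not tested. Cyp4a31 had 12.1, 17.4 and 7.39 CPM at 16 weeks against 69.9, 94.7 and 97.9 CPM at 2 weeks (log2 fold change -3.12 ± 0.266, SE; adjusted p = 1.16e-05). Pdk4 had 5.33, 3.97 and 5.95 CPM at 16 weeks against 10.5, 47.6 and 37.4 CPM at 2 weeks (-2.73 ± 0.586; adjusted p = 0.00429). Cyp4a14 (-2.49), Ppargc1a (-1.74), Cyp4a10 (-1.23), Bdh1, Acadl (-0.68), Hadh (-0.54) and Etfa (-0.33) fell as well. Acadl and Hadh, a long-chain dehydrogenase and the short-chain hydroxyacyl-CoA dehydrogenase, fell at both adult ages, while most genes of mitochondrial beta-oxidation passed the test at neither. Without the 3 libraries of mixed sex 8 of the 41 genes were called, Cd36, Pex11a, Acot1, Etfa and Cyp4a10 being lost. Without 16-week PBS replicate 3, 7 were. Calls among all genes in these fits are not given here.

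Between 16 and 8 weeks, 4 genes fell and 0 rose, 9.76% of the 41, where 0.413% of all genes were called (0.234% lower and 0.179% higher at 16 weeks). The 4 were 3 of the omega-hydroxylases and Cd36. Cyp4a14 had 231, 295 and 36.0 CPM at 16 weeks against 687, 569 and 739 CPM at 8 weeks (log2 fold change -2.70 ± 0.385, SE; adjusted p = 0.0125). Cyp4a31 fell by 1.70 ± 0.255 (adjusted p = 0.0176), Cyp4a10 by 1.92 ± 0.336 (adjusted p = 0.0357) and Cd36 by 0.99 ± 0.188 (adjusted p = 0.0474) on the log2 scale. The 3 libraries of each gene did not overlap between the ages. The 4 genes had been picked by the test on these same libraries, so this adds no support. The share of all genes without overlap between these ages is not given here. The next genes, Ehhadh (-1.01, adjusted p = 0.0513), Cyp4a32 (-1.30, adjusted p = 0.0663) and Crat (-0.86, adjusted p = 0.126), missed the threshold, and 35 of the 41 log2 fold changes were negative, with a median of -0.213. All 4 calls were lost when any of 4 libraries was left out (8-week PBS replicate 2 or any 16-week PBS replicate), and without the sex term. Calls fell to 2, Cyp4a14 and Cyp4a31, without the 3 libraries of mixed sex, and also to 2 without any one of 5 further libraries: asparaginase replicate 1 of 2 weeks and replicates 1 and 3 of 16 weeks, PBS replicate 3 of 2 weeks and replicate 1 of 8 weeks. Without 8-week PBS replicate 3, 8 of the 41 genes were called. Calls among all genes in the fits without libraries are not given here. DESeq2 called 10 of the 41, among 550 genes in all. The 16-week PBS livers were 2 females and 1 male, as were those of 8 weeks, and the summed muscle markers were 132, 243 and 41.7 CPM at 16 weeks against 686, 291 and 810 CPM at 8 weeks. Summed acinar markers were 13.0, 634 and 716 CPM at 16 weeks against 11.4, 9.94 and 10.1 CPM at 8 weeks, with 12 of 12 markers at a positive log2 fold change, and 6 of 6 adipocyte markers were positive as well; none of these markers was called. Their part in the 4 calls was not tested.

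**Figure D3:**
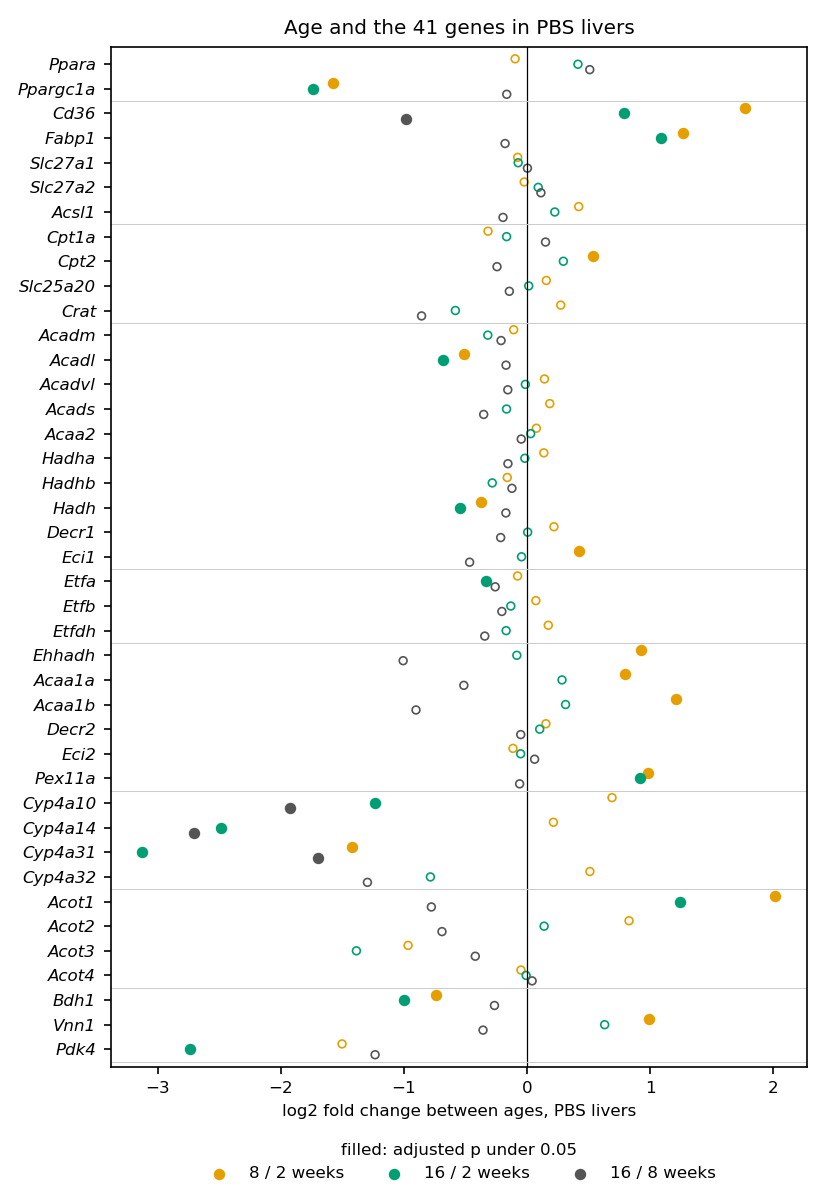
Log2 fold change of the 41 genes between ages in PBS livers, for 8 over 2, 16 over 2 and 16 over 8 weeks; filled points have an adjusted p under 0.05. Cd36 lies furthest to the right among the called genes of 8 over 2 weeks apart from Acot1, and the filled points of 16 over 8 weeks (Cyp4a14, Cyp4a31, Cyp4a10 and Cd36) all lie left of 0.

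Part of the module differed between the sexes in adult livers, while no gene of mitochondrial beta-oxidation, electron transfer or the carnitine shuttle was called. Between males and females of 8 and 16 weeks, with treatment and age in the fit, 1 gene was higher and 9 were lower in males, 24.4% of the 41, where 12.9% of all genes were called (4.87% higher and 8.02% lower). The genes lower in males were 3 omega-hydroxylases (Cyp4a10, Cyp4a14 and Cyp4a31), the thioesterases Acot3 and Acot4, the transport genes Cd36 and Slc27a1, and Bdh1 and Vnn1, while Pex11a was higher. Acot3, a peroxisomal thioesterase in mouse (chr12:84052144-84060402), had a lowest, median and highest level of 2.77, 7.67 and 14.4 CPM in the 6 males against 20.7, 43.1 and 96.3 CPM in the 6 females. The sexes did not overlap, and the log2 fold change was -2.91 ± 0.450 (SE; adjusted p = 0.00179). Slc27a1 also did not overlap, at 4.04, 5.14 and 6.12 CPM in males against 6.82, 7.99 and 14.9 CPM in females (-0.86 ± 0.159; adjusted p = 0.00544). The share of all genes without overlap between the sexes is not given here. Markers of other cells also lay lower in males: 10 of 10 muscle markers had a negative log2 fold change (median -1.57, none called), 3 of 6 adipocyte and 5 of 9 stellate cell markers were called lower, and 11 of 11 Kupffer cell markers were negative, with 1 called. Their part in the sex differences was not tested.

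The omega-hydroxylases overlapped between the sexes across the adult livers. Cyp4a14 had 36.0, 347 and 1110 CPM in males against 231, 658 and 1223 CPM in females (lowest, median and highest). Its log2 fold change was -1.66 ± 0.268 (SE; adjusted p = 0.00248). Cd36 had 34.3, 66.0 and 105 CPM in males against 61.6, 94.4 and 192 CPM in females (-0.82 ± 0.135; adjusted p = 0.00276), and Cyp4a31 fell by 1.04 ± 0.180 on the log2 scale in males (adjusted p = 0.00357). Pex11a had 54.6, 72.2 and 81.6 CPM in males against 36.8, 50.9 and 62.7 CPM in females (0.51 ± 0.139; adjusted p = 0.0317). The CYP4A genes are not all lower in males: Cyp4a12a and Cyp4a12b, which are outside the module and were looked up after the others had been seen, had medians of 190 and 97.8 CPM in males against 1.63 and 1.01 CPM in females (log2 fold changes 6.55 and 6.58; adjusted p = 5.28e-05 and 9.74e-06). These are near-identical copies, so reads may be split between them. Without the 8-week asparaginase replicate 1, a female, 3 genes of the 41 were called in place of 10. Without the 16-week asparaginase replicate 3, also a female, 6 were called. The share of all genes called in those fits is not given here. Acot3, Cyp4a14 and Cd36 passed in all 18 fits that left out 1 library.

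**Figure D4:**
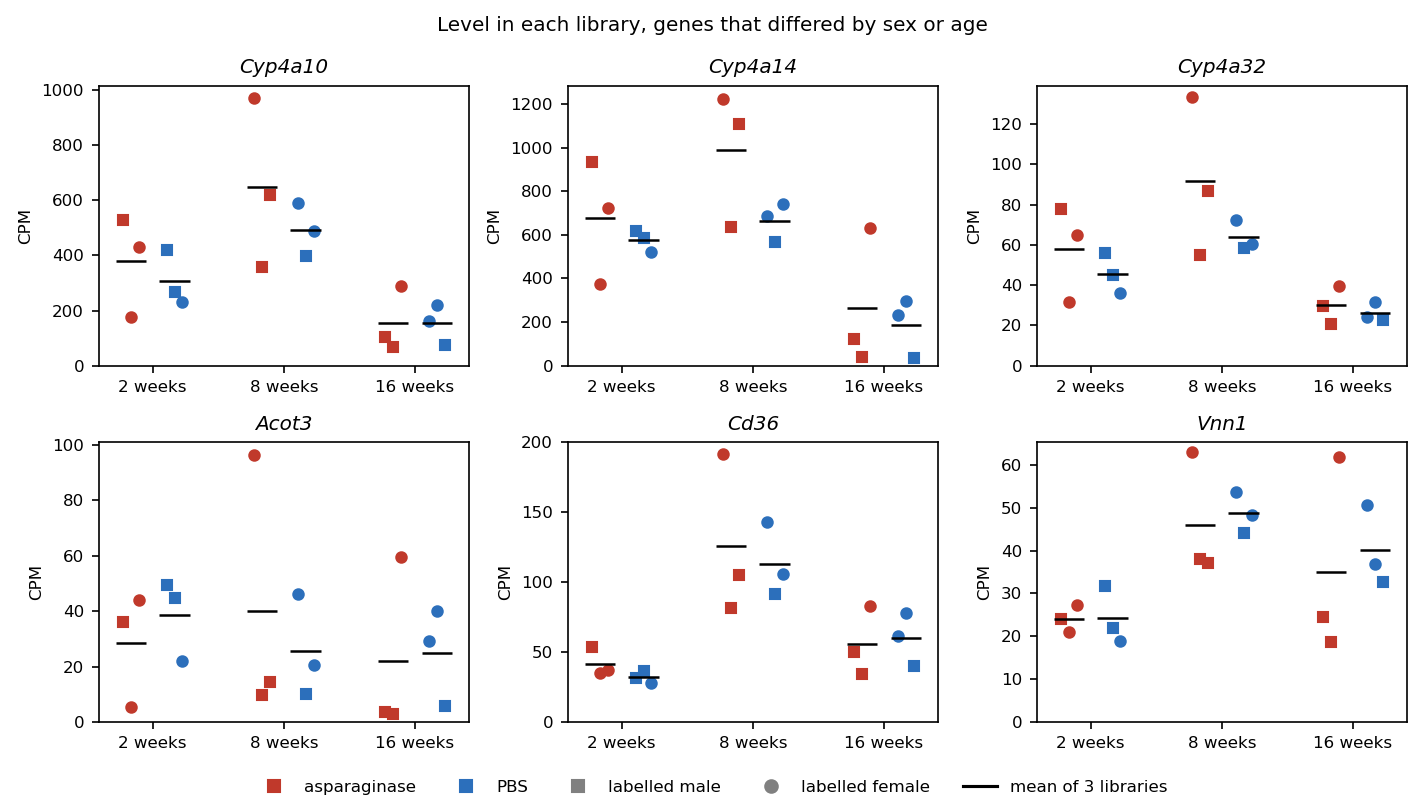
CPM on a linear axis for Cyp4a10, Cyp4a14, Cyp4a32, Acot3, Cd36 and Vnn1 in each library by age, with asparaginase in red left of PBS in blue, squares for males, circles for females and a line at the mean of 3. In the adult groups the squares of Acot3 lie below the circles, from 2.77 to 14.4 CPM against 20.7 to 96.3 CPM.

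The remaining genes of the pathway were read from 5 lists that share no gene with the 41. None was called at a single age in the lists of ketone body genes (7), other peroxisomal genes (25), other mitochondrial genes (28 tested of 30), other PPARA-responsive genes (37) and transcriptional partners (23). For the mean effect, 0 ketone body genes, 0 mitochondrial genes, 1 gene up and 1 down among the peroxisomal ones, 3 up among the PPARA-responsive ones and 1 up among the regulators were called, where 5.41% of all genes were. Fgf21, a hormone gene that PPARA and amino acid stress both raise, had 37.0, 7.67 and 7.81 CPM in asparaginase livers of 2 weeks against 0.711, 2.09 and 2.22 CPM in PBS livers. It had 2.19, 19.9 and 28.8 CPM at 8 weeks against 0.446, 2.38 and 0.924 CPM in PBS livers, and 24.7, 6.65 and 7.86 CPM at 16 weeks against 0.989, 0.292 and 0.350 CPM. It rose by a mean of 3.42 ± 0.462 on the log2 scale (SE; adjusted p = 0.00232), the largest mean change among the genes called in these lists. Pnpla2, the adipose triglyceride lipase, rose by 0.50 ± 0.0882 (adjusted p = 0.00931) and Pparg, the PPAR of fat cells, by 0.47 ± 0.114 (adjusted p = 0.0335). The thioesterase Acot6 rose by 0.60 ± 0.131 (adjusted p = 0.0222) and the PPAR partner Rxrb by 0.28 ± 0.0687 (adjusted p = 0.0346), while catalase (Cat) fell by 0.36 ± 0.0949 (adjusted p = 0.045).

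Among other well-known PPARA targets, these were not called in the mean effect: Angptl4, a lipase inhibitor, at 0.22 (adjusted p = 0.542) and Plin2, a lipid droplet coat protein, at 0.06 (adjusted p = 0.815), both as log2 fold changes. With age in PBS livers, 12 of 25 other peroxisomal genes (11 of them up) and 12 of 28 other mitochondrial genes (10 up) were called between 8 and 2 weeks, where 31.7% of all genes were. The other lists had 15 of 37 PPARA-responsive genes (10 up), 5 of 23 partners (4 up) and 2 of 7 ketone body genes (1 up). Between 16 and 2 weeks the calls were 13 of 25 peroxisomal genes (9 up), 9 of 28 mitochondrial genes (6 up), 13 of 37 PPARA-responsive genes (8 up), 7 of 23 partners (7 up) and 3 of 7 ketone body genes (1 up), where 27.8% of all genes were called. Between 16 and 8 weeks 1 gene of the 5 lists was called, lower at 16 weeks, in the PPARA-responsive list. By sex in adults, 8 of 25 peroxisomal genes (32%, 5 of them higher in males) and 2 of 28 mitochondrial genes (1 higher) were called. So were 5 of 37 PPARA-responsive genes (3 higher), 1 of 23 partners (1 higher) and 1 of 7 ketone body genes (0 higher), where 12.9% of all genes were.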

How the data were processed

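Polyadenylated RNA from 18 mouse livers was sequenced, with RNA of all ages sent for library preparation together, per the labels' protocols. The deposited values are raw counts per gene made by the authors; TopHat2 2.0.9, DESeq2 and the builds GRCm38 and mm10 are named in the submitters' processing notes, while which tool counted, on which annotation and strand, is not given in the sources used here. Symbols came from GENCODE M21 (35449 of 37315 gene identifiers matched). All 18 libraries were fitted together with edgeR 4.0.16 (R 4.3.3, TMM scaling, filterByExpr with a minimum count of 10 and total of 15, glmQLFit), with 1 term per group and sex within each age, leaving 9 residual degrees of freedom, and p-values were adjusted over all 16213 genes at 0.05. Levels are CPM on TMM-scaled library sizes. A standard error is the log2 fold change over the root of F. The scripts were tested on simulated data. No pair of libraries was identical. Nothing says how separate the animals of a group were in litter or cage, so p-values measure the spread between these livers. The 41 genes and all lists were chosen with earlier results of these data known. Genes were named where they had the smallest p in a comparison, did not overlap between groups or represented a role, and not every gene so taken is printed; Cyp4a12a and Cyp4a12b were chosen after their values were seen. Alternatives were scaling, filter, DESeq2 1.42.0, limma-voom (limma 3.58.1), sex terms and leaving out libraries.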

Additional observations from a re-analysis of the deposited data

Results flagged for a closer look

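Ppara was set apart because every asparaginase liver lay above every PBS liver at 8 weeks and below every PBS liver at 16 weeks. The log2 fold change at 16 weeks minus that at 8 weeks was -0.822 (SE 0.281), and it did not pass the test of the difference itself (edgeR's quasi-likelihood test, adjusted p = 0.427). At 8 weeks 125, 104 and 89.4 CPM in asparaginase livers stood against 47.8, 85.1 and 82.2 CPM in PBS livers; at 16 weeks 83.2, 93.6 and 81.7 CPM stood against 104, 99.2 and 101 CPM.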

How the results depend on the processing

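No paired analysis was possible because the replicate numbers follow accession order and mark no shared litter, batch or day. Calls among the 41 genes without the filter on low counts numbered 2 at 8 weeks and 5 for the mean effect. DESeq2 called 1, 2 and 1 at 2, 8 and 16 weeks, among 432, 659 and 322 genes in all. It called 8 for the mean effect, among 1525 in all, and 10 for PBS livers of 16 against 8 weeks, among 550. Counts of all genes under the other alternatives are not given here, so their calls are not set against a share of all genes. PBS livers of 16 against 8 weeks gave 0 calls without the sex term and 2 with it in adults alone. Without the 3 libraries with reads of both sexes, with sex fitted in adults alone, there were 0 calls for the mean effect, 8 for PBS livers of 16 against 2 weeks and 2 for 16 against 8 weeks. Without 8-week asparaginase replicates 1 and 2 there were 0 for the mean effect and 3 by sex. When 1 library was left out at a time, calls ranged from 0 to 0 at 2 weeks, 0 to 1 at 8 weeks, 0 to 0 at 16 weeks, 0 to 6 for the mean effect, 0 to 0 for each difference between ages and the joint test, 7 to 16 for PBS livers of 8 against 2 weeks, 7 to 14 for 16 against 2 weeks, 0 to 8 for 16 against 8 weeks and 3 to 11 by sex. The lowest counts came without 2-week PBS replicate 3 (8 against 2 weeks, 7) and 16-week PBS replicate 3 (16 against 2 weeks, 7), and the highest without 2-week asparaginase replicate 2 (mean effect, 6) and 8-week PBS replicate 3 (16 against 8 weeks, 8). Of 1205 values of the 45 single-gene calls under alternatives, 1050 kept their call, 155 lost it and 0 changed direction. No scaling moved the median of all genes by over 0.1 on the log2 scale. The causes of the lost calls were not tested. The 95% interval at 2, 8 and 16 weeks lay within 1.5-fold for 21, 19 and 23 of the 41 genes. Smaller changes of these genes, and changes of 1.5-fold or more of the rest, are not excluded.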
